A study of Mus musculus with 42 samples.

Results

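A set of 8 genes that germ cells share with pluripotent cells was followed across spermatogonia of control mice and of mutants for the chromatin remodeler CHD8: *Lin28a*, *Lin28b*, *Pou5f1*, *Zfp42*, *Utf1*, *Dppa4*, *Dppa2* and *Klf4*. They were listed by name, with earlier results of these data known, and make up 8 of the 27179 genes of the count table. The study compared testis cells of male C57BL/6J mice at 10 days post-partum (dpp), sorted with magnetic beads for the surface antigen Thy1 or c-Kit, by RNA sequencing of poly(A)-selected RNA. The mutants were *Ddx4-Cre*; *Chd8* F/- mice and the controls *Ddx4-Cre*; *Chd8* +/F littermates, so the controls also carried the Cre transgene and 1 floxed allele. The *Ddx4* promoter drives Cre in germ cells, where Cre removes the floxed allele. Germ cells of controls thus keep 1 intact *Chd8* allele, and somatic cells of mutants keep the floxed one. Each of the 4 groups had 3 libraries (replicates 1 to 3), prepared from spermatogonia of 3 male pups per analysis, and whether a library is 1 pup or a pool is not stated. If a pool was split, the p-values below measure only technical spread.

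LIN28A and LIN28B are RNA-binding proteins that block the maturation of let-7 microRNAs. In the testis, LIN28A marks undifferentiated spermatogonia and supports the expansion of progenitors. *Pou5f1* (OCT4), *Zfp42* (REX1), *Utf1*, *Dppa2* and *Dppa4* belong to the transcription factor and chromatin network of pluripotent stem cells, and several of them are retained in the germline after pluripotency is shut down. *Klf4*, a Krüppel-like transcription factor, is also made by somatic cells of the testis and is among the genes induced by stress and growth signals.

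The values are read counts scaled per library by total and TMM factor (CPM), and a gene is called when edgeR's quasi-likelihood F test gives a false discovery rate (FDR) under 0.05 and the absolute log2 fold change exceeds 0.5. Total counts ran from 32266861 to 45396233 per library. The counts of *Chd8* itself, 8243 to 12963 per library, cannot show the deletion, which removes exons 11 to 13 of a gene that was counted whole. All 13 germ cell markers exceeded 1 CPM in every library, which does not tell the sorted populations apart. Of the sorting antigens, *Thy1* had 11.7 to 14.2 CPM in control Thy1+ and 0.436 to 0.932 CPM in control c-Kit+ libraries. *Kit* had 171 to 393 CPM in control Thy1+ and 626 to 716 CPM in control c-Kit+ libraries. Somatic markers were also present. The 51 genes listed for Sertoli, Leydig, peritubular myoid, stromal, endothelial and macrophage cells summed to 13590 to 18626 CPM in control and 15876 to 23975 CPM in mutant Thy1+ libraries. In c-Kit+ libraries the same sum was 3819 to 5111 CPM in controls and 7832 to 9612 CPM in mutants, without overlap. The germ marker sum was 2291 to 3454 CPM against 1751 to 2954 CPM in Thy1+ and 3744 to 4434 CPM against 3036 to 3529 CPM in c-Kit+ libraries. In such bulk samples, fewer cells of a type and less RNA per cell cannot be told apart.

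The genes lie on 6 chromosomes of mm10. *Lin28a* (gene ID 83557) spans chr4:134003330-134018816 on the minus strand, *Lin28b* (380669) chr10:45376619-45470201 on the minus strand, *Pou5f1* (18999) chr17:35506032-35510777 on the plus strand, and *Zfp42* (22702) chr8:43295067-43307009 on the minus strand. *Utf1* (22286) lies at chr7:139943856-139945112 on the plus strand and *Klf4* (16600) at chr4:55527137-55532475 on the minus strand. *Dppa4* (73693, chr16:48283735-48294292) and *Dppa2* (73703, chr16:48310274-48319513) are neighbours on the plus strand, 15982 bases apart. *Pou5f1* shares 559 of its 1443 exon bases (38.7%) with an unnamed gene on the opposite strand (gene ID 100503096, 0 to 3 counts per library). The reads were counted without strand, so reads over these bases cannot be assigned to either gene and the level of *Pou5f1* is a minimum. The other 7 genes share no exon base with another gene.

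Of the 8 genes, 6 have a promoter in the RefSeq sequence set of the same build (GRCm38.p6), and the 250 bases before the annotated start were searched. *Dppa4* and *Dppa2* had no entry. The sequences of *Lin28a*, *Pou5f1* and *Zfp42*, which were lower in mutants of both populations, and of *Klf4*, which was not, are shown 5′ to 3′ in the direction of the gene, with capitals for an octamer (ATGCAAAT, the motif read by POU factors such as OCT4) or a GC box (GGGCGG, the core read by SP and KLF factors), on either strand.
*Lin28a*, chr4:134018817-134019066, minus strand: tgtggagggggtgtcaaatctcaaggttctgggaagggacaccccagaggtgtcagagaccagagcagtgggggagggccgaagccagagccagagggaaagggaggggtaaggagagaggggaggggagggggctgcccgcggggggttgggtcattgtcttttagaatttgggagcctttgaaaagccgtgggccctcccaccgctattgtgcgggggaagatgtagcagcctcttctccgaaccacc
*Pou5f1*, chr17:35505782-35506031, plus strand: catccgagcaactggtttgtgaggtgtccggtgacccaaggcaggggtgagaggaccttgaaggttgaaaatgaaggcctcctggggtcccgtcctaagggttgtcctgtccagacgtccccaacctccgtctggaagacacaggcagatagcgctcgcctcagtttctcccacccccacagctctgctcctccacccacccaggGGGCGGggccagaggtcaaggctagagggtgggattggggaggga
*Zfp42*, chr8:43307010-43307259, minus strand: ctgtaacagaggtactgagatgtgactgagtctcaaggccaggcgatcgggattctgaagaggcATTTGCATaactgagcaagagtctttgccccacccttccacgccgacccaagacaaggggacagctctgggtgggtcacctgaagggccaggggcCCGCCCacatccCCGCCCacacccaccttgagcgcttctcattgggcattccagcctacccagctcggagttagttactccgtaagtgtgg
*Klf4*, chr4:55532476-55532725, minus strand: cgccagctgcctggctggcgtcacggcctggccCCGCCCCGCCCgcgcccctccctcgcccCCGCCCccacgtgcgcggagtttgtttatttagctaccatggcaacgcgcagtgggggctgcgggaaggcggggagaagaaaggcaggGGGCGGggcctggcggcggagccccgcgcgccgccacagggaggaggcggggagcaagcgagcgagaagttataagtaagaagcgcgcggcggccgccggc
The *Zfp42* promoter held an octamer in reverse orientation, with its first base 186 bases before the start, and a pair of reverse GC boxes at 91 and 79 bases. An octamer was present in 1.6% and a GC box in 32.7% of 32841 promoters of the same length. The *Pou5f1* window shown held 1 GC box, *Klf4* and *Utf1* held 4 each, and the windows of *Lin28a* and *Lin28b* contained neither motif. A second annotated window of *Pou5f1*, chr17:35508557-35508806, also contained neither and had 6 CpG and 45.6% G+C. The other values of *Pou5f1* are those of the window shown. No window held an E2F site (TTTCGCGC, in 0.256% of promoters, or TTTGGCGC, in 0.417%). The *Klf4* window had 32 CpG and 74% G+C, *Utf1* 14 CpG, *Zfp42* 9, *Pou5f1* 8, *Lin28a* 7 and *Lin28b* 6, where the median of all promoters was 6 CpG and 52.4% G+C. A match is a description of letters and not a bound site.

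Compared per length of exon, the order of the genes changed with the population. In control Thy1+ cells *Klf4* was highest, with a mean of 131 CPM per kb (range 90.7 to 154), followed by *Lin28a* with 40.6 CPM per kb (34.3 to 45.7). *Dppa4* (9.20 CPM per kb), *Lin28b* (9.14), *Pou5f1* (6.14) and *Zfp42* (4.09) came next, and each of these neighbours overlapped the next in range. *Utf1* at 2.58 and *Dppa2* at 0.364 CPM per kb stood apart below them. In control c-Kit+ cells *Lin28a* was highest, with 36.1 CPM per kb, and its range overlapped that of *Klf4* (29.2 CPM per kb, 21.8 to 43.2). *Lin28b* followed with 15.1 CPM per kb, clear of *Dppa4* with 4.76. In mutants of either population *Klf4* was again highest, and *Zfp42* and *Pou5f1* ranked below *Utf1*, whereas in controls *Zfp42* ranked above *Utf1*, clear of it in Thy1+ and overlapping in c-Kit+ cells.

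**Figure D1:**
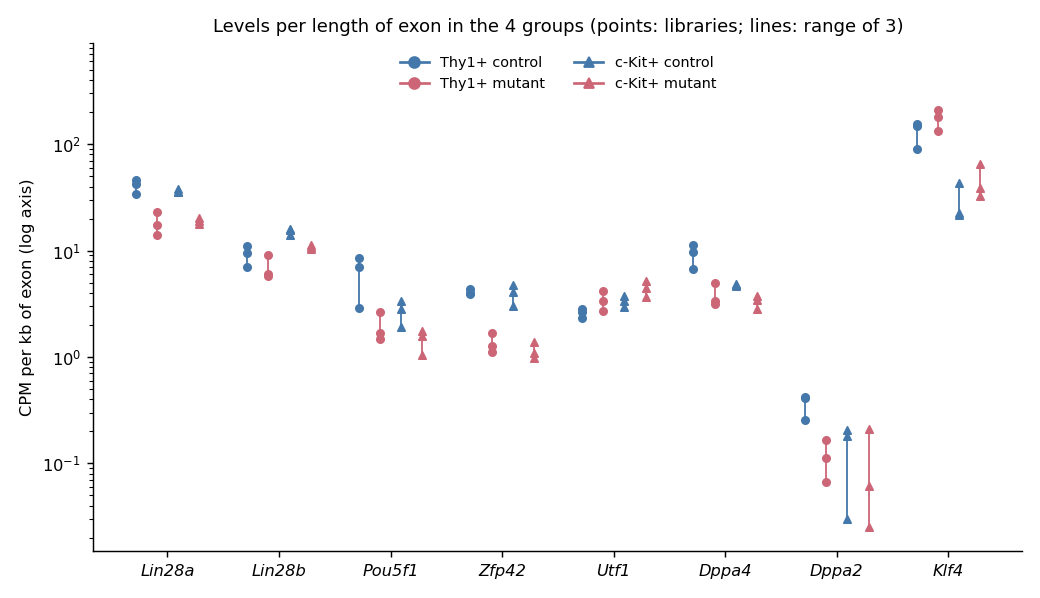
Level of each gene as CPM per kb of exon on a log axis, with circles for Thy1+ and triangles for c-Kit+ libraries, blue for controls and red for mutants, and lines spanning the 3 libraries of a group. *Klf4* and *Lin28a* lie above the other genes in all 4 groups, and *Dppa2* lies at or below 0.419 CPM per kb in every library.

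Of the 42 listed genes of the pluripotency network, none a member, 36 had enough reads to be tested in each genotype comparison. The levels of those named here differed widely. *Nanog* had 0 to 12 counts, *Prdm14* 0 to 21 counts and *Sox2* 4 to 30 counts per library, all under 1 CPM. *Tfcp2l1* had mean levels of 25.6 to 53.4 CPM and *Tet1* of 11.5 to 55.9 CPM over the 4 groups. *Sall4*, a zinc finger factor that undifferentiated spermatogonia share with pluripotent cells, was abundant in Thy1+ cells, at 173 ± 27.5 CPM (SD, n = 3) in controls and 100.3 ± 26.2 CPM in mutants. In c-Kit+ cells its level was 153 ± 14.0 CPM in controls and 117 ± 3.96 CPM in mutants.

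The first question was how the loss of CHD8 relates to these genes in Thy1+ cells, the sort for undifferentiated spermatogonia. *Lin28a*, *Pou5f1*, *Zfp42*, *Dppa4* and *Dppa2* were lower in all 3 mutant libraries than in all 3 control libraries, to between 31.9% and 44.6% of the control level. *Lin28b*, *Utf1* and *Klf4* overlapped between genotypes. Over all 17416 tested genes, 10.7% were lower and 6.49% higher in mutants without overlap. In the fit without replicate terms, 0 of 8 genes were called, as were 0 of all genes (0%), with 5 of the 8 and 2151 of all genes at an unadjusted p under 0.05. Libraries with the same replicate number deviated together in Thy1+ cells, but no source states that they are paired. The block used below therefore rests on these same counts. With the replicate number as a block 5 of the 8 genes fell and 0 rose, against 4.92% lower and 3.20% higher among all tested genes. The edgeR exact test without a block, the study's own test, called 4 of the 8 genes lower (background 1.57%), and DESeq2 called the same number (1.87%), each leaving out *Dppa2*.

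*Lin28a* had 146, 159 and 119 CPM in control replicates 1 to 3 and 48.6, 79.5 and 60.0 CPM in the mutant ones. Every mutant library was below every control library, with replicate 1 at 33.3% of its control and replicates 2 and 3 at 50.0% and 50.3%. The log2 fold change was -1.17 (SE 0.20, edgeR FDR = 0.163), and -1.18 (SE 0.09, FDR = 5.9e-07) with the replicate block. Its paralog *Lin28b* had 37.5, 59.5 and 51.2 CPM in controls and 32.7, 49.3 and 31.2 CPM in mutants. Each mutant library was below the control of its number, at 60.9% to 87.2%, but the groups overlapped. The log2 fold change of *Lin28b* was -0.38 (SE 0.23, FDR = 0.504), and with the block it remained at -0.38 (SE 0.09, FDR = 0.0044), which is short of the minimum fold change.

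*Pou5f1* varied most among control libraries, with 12.3, 10.1 and 4.14 CPM against 2.15, 3.84 and 2.43 CPM in mutants. The third control lay just above the highest mutant library. The log2 fold change was -1.65 (SE 0.42, edgeR FDR = 0.249), and -1.58 (SE 0.25, FDR = 2.1e-04) with the block. *Zfp42*, a zinc finger protein and classical stem cell marker, was the most uniform, with 7.23, 7.84 and 7.02 CPM in controls and 2.01, 3.02 and 2.30 CPM in mutants. Its log2 fold change was -1.58 (SE 0.22, FDR = 0.144), and -1.60 (SE 0.19, FDR = 1.8e-05) with the block. *Utf1*, a chromatin-associated factor of undifferentiated cells, had 3.04, 3.25 and 2.67 CPM in controls and 3.12, 4.83 and 3.92 CPM in mutants. The groups overlapped, and the log2 fold change of 0.41 (SE 0.24) was not called in either fit (FDR = 0.493, and 0.194 with the block).

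The neighbours *Dppa4* and *Dppa2* encode partner SAP-domain proteins that bind chromatin. *Dppa4* had 17.2, 14.8 and 10.4 CPM in controls and 4.83, 7.62 and 5.15 CPM in mutants, with no overlap. Its log2 fold change was -1.26 (SE 0.26, edgeR FDR = 0.192; with the block, SE 0.16 and FDR = 4.1e-05). *Dppa2* rested on few reads, and both reads of a fragment were counted, so the fragments were fewer still. It had 36, 30 and 18 counts in controls and 8, 14 and 4 in mutants. Its log2 fold change of -1.62 (SE 0.48, FDR = 0.30) became -1.66 (SE 0.53, FDR = 0.0266) with the block. *Klf4* went the other way, from 468, 276 and 450 CPM in controls to 635, 405 and 551 CPM in mutants. Each mutant library exceeded the control of its number, at 123% to 147% of its level, while the groups overlapped. The log2 fold change of *Klf4* was 0.42 (SE 0.22, FDR = 0.457), and 0.44 (SE 0.05, FDR = 2.5e-05) with the block, below the minimum fold change.

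**Figure D2:**
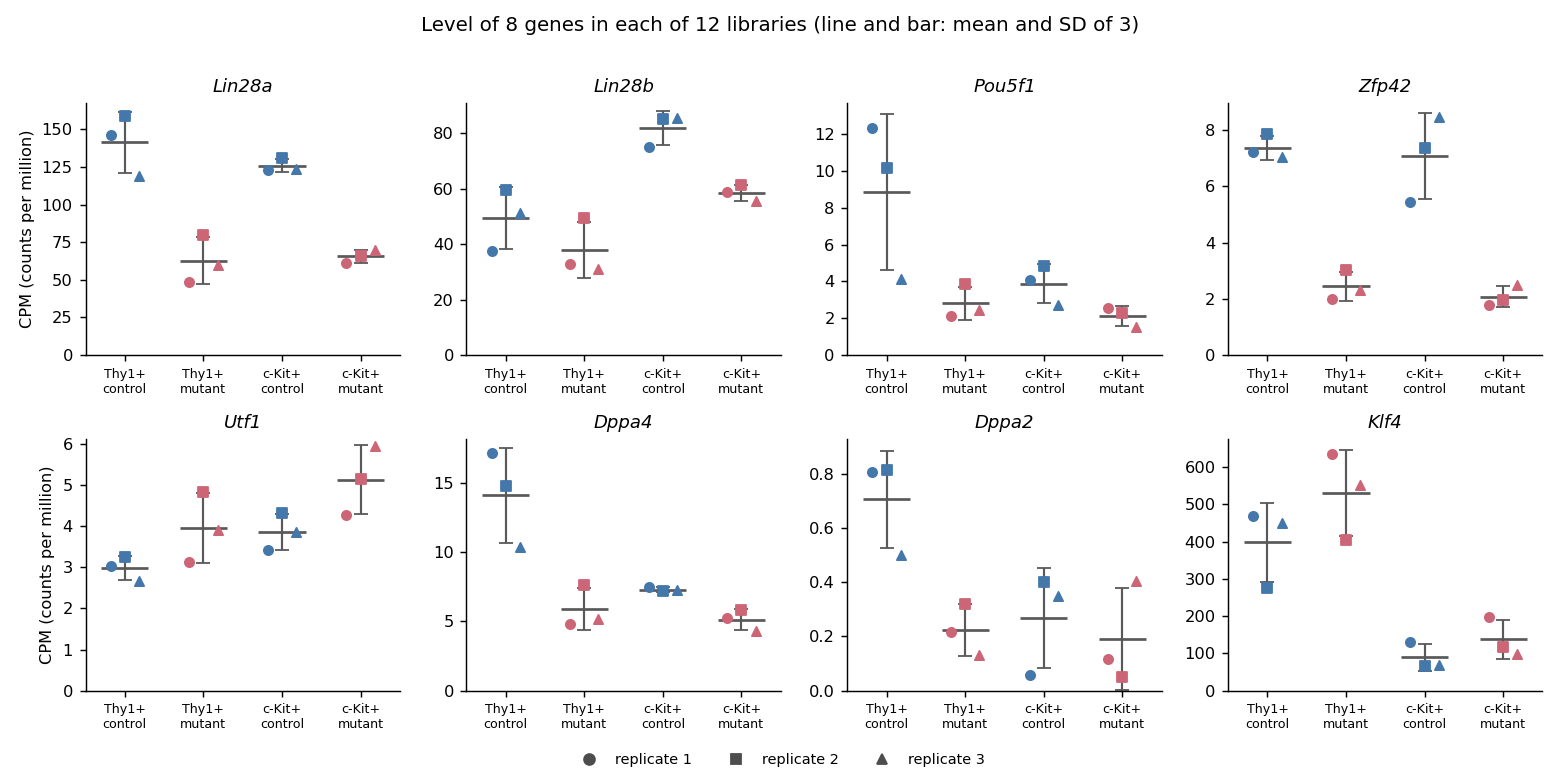
CPM of the 8 genes in each library, with markers for replicates 1 to 3, blue for controls and red for mutants, and lines and bars for the mean and SD of 3 libraries. Each gene has its own linear axis from 0. *Lin28a*, *Zfp42*, *Pou5f1* and *Dppa4* separate controls from mutants in both populations. The genotypes lie closer for *Pou5f1* and *Dppa4* in c-Kit+ than in Thy1+ cells, and *Klf4* separates the populations. The difference between the genotype effects was called for neither *Pou5f1* nor *Dppa4* (edgeR FDR = 0.671 and 0.450).

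In c-Kit+ cells, the sort for differentiating spermatogonia, the replicates were closer and 5 of the 8 genes fell: *Zfp42*, *Lin28a*, *Pou5f1*, *Dppa4* and *Lin28b*. None rose. Among all 17134 tested genes, 7.41% were called lower and 14.8% higher, and without regard to the test 20.6% were lower and 31.6% higher without overlap. The same 5 genes were those whose control and mutant libraries did not overlap.

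*Lin28a* had 123.0, 130.7 and 123.5 CPM in controls and 61.2, 66.0 and 69.8 CPM in mutants. The mutants were at 49.7% to 56.5% of the control of their number, a narrow range, and the gene fell by 1.0 on the log2 scale (SE 0.07, edgeR FDR = 7.6e-05). *Lin28b* had 74.9, 85.1 and 85.4 CPM in controls and 58.6, 61.2 and 55.4 CPM in mutants. It fell less, by 0.54 on the log2 scale (SE 0.08, FDR = 6.7e-04). *Zfp42* had 5.45, 7.35 and 8.45 CPM in controls and 1.77, 1.97 and 2.49 CPM in mutants, the largest decrease of the 8 genes, by 1.83 on the log2 scale (SE 0.22, FDR = 3.4e-04).

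*Pou5f1* was low in c-Kit+ cells of either genotype, with 4.08, 4.83 and 2.73 CPM in controls and 2.54, 2.29 and 1.51 CPM in mutants. The gap between the groups was only from 2.54 to 2.73 CPM. The log2 fold change was -0.93 (SE 0.28, edgeR FDR = 0.0225), and the call was lost without control replicate 2 (FDR = 0.0812) or mutant replicate 3 (FDR = 0.0806). *Dppa4* had 7.48, 7.18 and 7.23 CPM in controls and 5.25, 5.79 and 4.31 CPM in mutants. It fell by 0.57 on the log2 scale (SE 0.16, FDR = 0.0166), and this call too was lost without mutant replicate 3 (FDR = 0.0652). *Dppa2* had 2 to 14 counts per library in both genotypes, and a difference was not detectable at this depth.

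*Utf1* had 3.44, 4.32 and 3.86 CPM in controls and 4.28, 5.16 and 5.96 CPM in mutants. The lowest mutant library lay below the highest control, and the log2 fold change was 0.35 (SE 0.19, edgeR FDR = 0.171). *Klf4* had 132, 66.4 and 68.4 CPM in controls and 197, 117 and 98.9 CPM in mutants. Control replicate 1 stood above the lower mutant libraries, and the log2 fold change was 0.57 (SE 0.29, FDR = 0.143). Leaving out 1 library moved the value from 0.22 (FDR = 0.557, without mutant replicate 1) to 0.96 (FDR = 0.0093, without control replicate 1), and only the latter of the 6 such fits passed the threshold.

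The difference between the genotype effects in c-Kit+ and Thy1+ cells was tested in a fit of all 12 libraries, in which 0 of the 8 and 0 of 18002 genes (0%) were called, with 1 of the 8 and 1804 of all genes at an unadjusted p under 0.05. That gene was *Dppa4*, whose effect was 0.75 higher (less negative) on the log2 scale in c-Kit+ cells (SE 0.31, edgeR FDR = 0.450). The difference was 0.78 (SE 0.54) for *Pou5f1*, 0.23 (SE 0.21) for *Lin28a* and -0.18 (SE 0.31) for *Zfp42*. DESeq2 called 0 of the 8 and 64 of all genes.

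The 8 genes were also expressed relative to the summed counts of the 13 germ cell markers. This scaling moved the median log2 fold change of all tested genes to 0.37 in Thy1+ and 0.34 in c-Kit+ cells, from 0.02 and 0.01 under TMM. *Lin28a* had 46.0 to 63.7 counts per 1000 germ marker counts in control and 26.9 to 32.3 in mutant Thy1+ libraries, and 29.5 to 33.0 against 18.0 to 23.0 in c-Kit+ libraries. *Zfp42* had 2.27 to 3.15 against 1.02 to 1.24 and 1.41 to 2.26 against 0.522 to 0.820 per 1000. Both genes were lower in mutants without overlap in both populations on this scale. *Utf1* was higher without overlap in both, with 0.942 to 1.33 against 1.63 to 2.11 and 0.889 to 1.03 against 1.26 to 1.96 per 1000. *Pou5f1*, *Dppa4* and *Dppa2* were lower without overlap in Thy1+ cells only, and *Lin28b* in c-Kit+ cells only. The share of all genes that separated on this scale was not counted. *Lin28b* had 16.4 to 20.7 against 16.7 to 18.7 per 1000 in Thy1+ cells, and 19.2 to 22.8 against 17.3 to 18.2 in c-Kit+ cells.

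In c-Kit+ cells 2 of the 8 genes remained called lower relative to germ markers, *Lin28a* (log2 fold change -0.66, SE 0.13, edgeR FDR = 8.2e-04) and *Zfp42* (-1.49, SE 0.25, FDR = 3.2e-04), against 2.78% of all tested genes. *Lin28b* (-0.22, FDR = 0.177), *Pou5f1* (-0.60, FDR = 0.0767) and *Dppa4* (-0.25, FDR = 0.307) lost their calls. *Utf1* (0.69, FDR = 0.0211) and *Klf4* (0.88, FDR = 0.0128) were called higher, as were 29.5% of all genes. In Thy1+ cells 0 of the 8 and 2 of all 17416 tested genes were called on this scale without the block. With the block *Lin28a* (-0.85), *Pou5f1* (-1.25), *Zfp42* (-1.27), *Dppa4* (-0.92) and *Dppa2* (-1.35) were lower (background 2.25%). *Utf1* (0.73) and *Klf4* (0.77) were higher with it (25.3%). *Lin28b* was at -0.05 (FDR = 0.692). The 8 genes did not share a direction relative to germ markers. All 13 germ markers had a negative log2 fold change in each population, and 1 of them, *Sycp3*, a synaptonemal complex gene, fell in c-Kit+ cells.

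**Figure D3:**
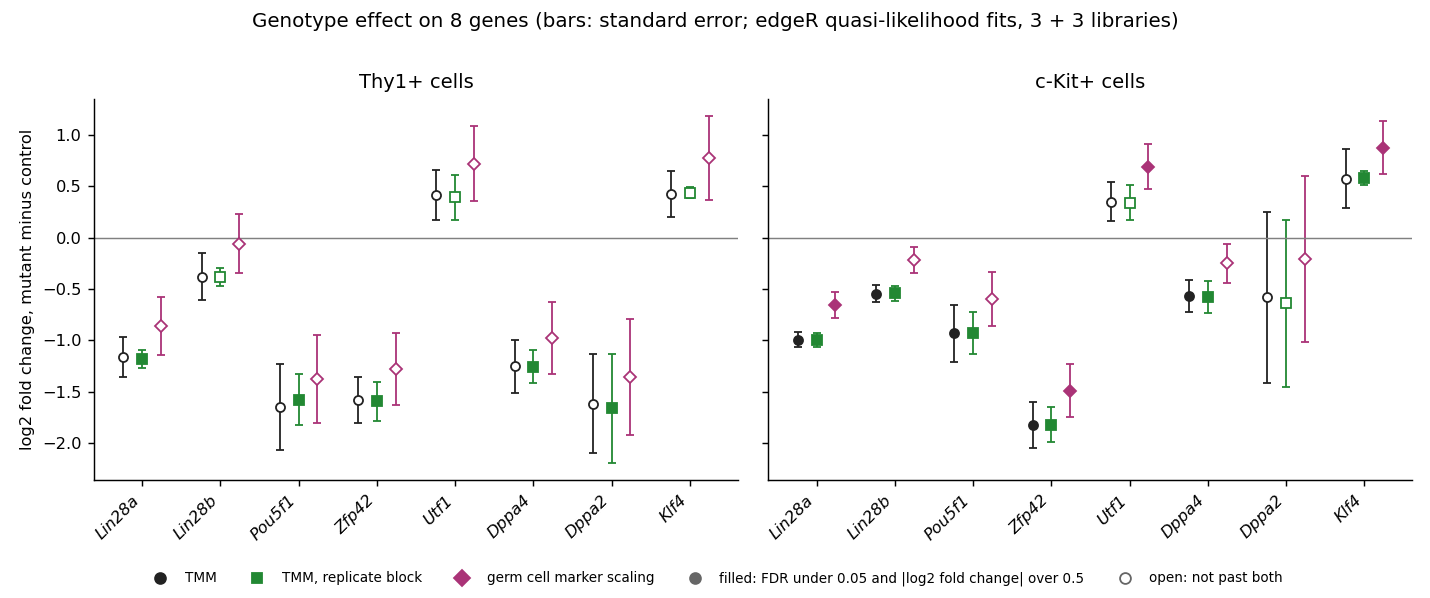
Log2 fold change of mutant over control for the 8 genes in Thy1+ and c-Kit+ cells, with the standard error, from edgeR fits with TMM scaling (circles), with TMM and a replicate block (squares) and with scaling to germ cell markers (diamonds). Filled symbols pass FDR 0.05 and the minimum fold change. *Utf1* and *Klf4* are above 0 and the other genes below 0 under each fit in both populations, and *Lin28b* lies at -0.06 in Thy1+ cells on the germ marker scale.

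**Figure D4:**
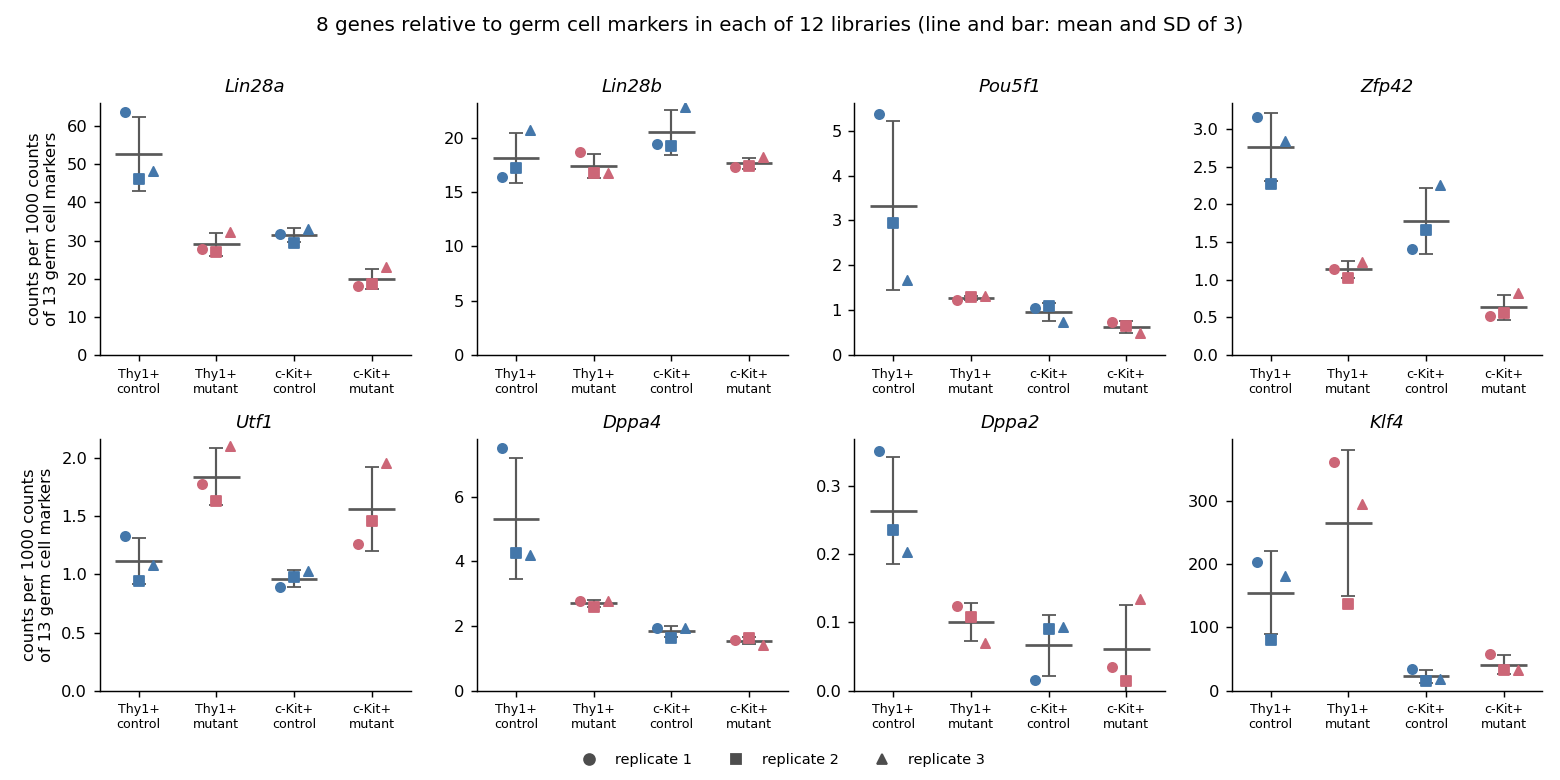
Counts of the 8 genes per 1000 counts of the 13 germ cell markers in each library, with the mean and SD of 3 libraries. *Lin28a* and *Zfp42* remain lower in mutants without overlap in both populations, and *Lin28b* is between 16.4 and 22.8 per 1000 in all 12 libraries. *Utf1* is higher in every mutant than in every control library of its population. The share of all genes that separate on this scale was not counted. Scaling to these markers called 29.5% of all tested genes higher in mutant c-Kit+ cells and, with the block, 25.3% in mutant Thy1+ cells.

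Between the populations, *Klf4*, *Pou5f1* and *Dppa4* were higher in control Thy1+ than in control c-Kit+ cells, and *Lin28b* was lower. Of all 17350 tested genes 20.7% were called higher and 7.08% lower. *Klf4* differed by 2.19 on the log2 scale (SE 0.30, edgeR FDR = 8.5e-04), with 276 to 468 CPM in Thy1+ and 66.4 to 132 CPM in c-Kit+ libraries. *Dppa4* differed by 0.98 (SE 0.20, FDR = 0.0071), with 10.4 to 17.2 against 7.18 to 7.48 CPM. *Pou5f1* differed by 1.22 (SE 0.39, FDR = 0.0395), but its groups overlapped. Without the block its call was lost when any library but Thy1+ replicate 3 was left out (FDR = 0.0666 to 0.128). Same-numbered libraries also deviated together between control populations. With the block *Pou5f1* was at 1.13 (SE 0.22, edgeR FDR = 0.0029), *Klf4* at 2.22 (SE 0.15), *Dppa4* at 0.95 (SE 0.17) and *Lin28b* at -0.73 (SE 0.10). *Lin28b* was lower in Thy1+ cells by a log2 difference of -0.71 (SE 0.16, FDR = 0.0092), with 37.5 to 59.5 against 74.9 to 85.4 CPM. *Lin28a* did not follow its paralog, with 119 to 159 against 123.0 to 130.7 CPM and a log2 difference of 0.19 (SE 0.11, FDR = 0.205). *Zfp42* (0.08) and *Utf1* (-0.35) were not called, nor was *Dppa2* (1.41, SE 0.60, FDR = 0.0961). Relative to germ markers, the difference of *Lin28b* was -0.18 (FDR = 0.503), and *Lin28a* (0.74, FDR = 0.0068) and *Dppa2* (1.97, FDR = 0.0182) were called higher in Thy1+ cells, where this scaling called 7192 genes higher and 69 lower in place of 3594 and 1229.

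In mutants the same comparison called *Klf4* higher in Thy1+ cells (1.99, SE 0.26, edgeR FDR = 7.9e-04), against 15.3% of all genes, and *Lin28b* lower (-0.58, SE 0.17, FDR = 0.0359), against 5.03%. The call of *Lin28b* was lost in 5 of the 6 fits that left out 1 library. *Pou5f1* (0.46, SE 0.32) and *Dppa4* (0.24, SE 0.23) overlapped between the mutant populations, and *Dppa2* had too few counts to be tested. The test of the difference between both comparisons is the interaction given above, which called none of the 8 genes.

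The level of *Klf4* is given beside the somatic markers of each library. Within the control and within the mutant Thy1+ libraries, replicate 2 had the lowest *Klf4* level (276 and 405 CPM) and the lowest somatic marker sum (13590 and 15876 CPM). The highest *Klf4* values, 551 and 635 CPM, belonged to the Thy1+ mutant libraries with the highest sums, 23975 and 22846 CPM. In mutant c-Kit+ cells, 11 of 11 Sertoli, 9 of 9 stromal, 7 of 8 endothelial, 5 of 8 Leydig, 4 of 7 peritubular myoid and 1 of 8 macrophage markers were called higher and none lower, beside 14.8% and 7.41% of all genes. No defining somatic list was at 0 in any group: the stromal genes summed to 1895 to 20445 CPM and the Sertoli genes to 516 to 3001 CPM. The part of these cells in the level of *Klf4* was not tested. For *Lin28b*, the lowest level, 31.2 CPM, stood beside a germ sum of 1858 CPM in mutant Thy1+ replicate 3, where the lowest germ sum was 1751 CPM. Its highest level, 85.4 CPM, stood beside 3744 CPM in control c-Kit+ replicate 3, the lowest germ sum of that group.

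**Figure D5:**
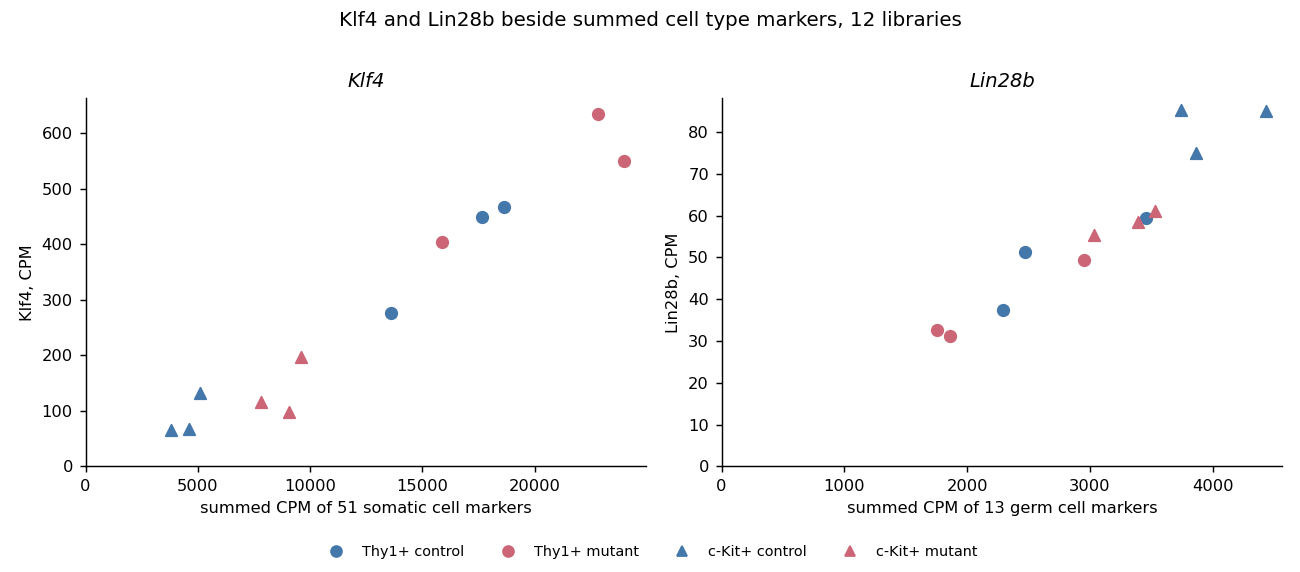
*Klf4* against the summed CPM of 51 somatic cell markers and *Lin28b* against the summed CPM of 13 germ cell markers, with 1 point per library, circles for Thy1+, triangles for c-Kit+, blue for controls and red for mutants. The Thy1+ libraries have the highest somatic sums and the most *Klf4*, and the control c-Kit+ libraries the highest germ sums and the most *Lin28b*, with exceptions to the order within groups.

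Genes that work with the members were taken from lists. Of 29 tested genes of the LIN28 and let-7 pathway (processing enzymes, terminal uridyltransferases, and let-7 targets), 2 fell and 3 rose in mutant c-Kit+ cells, where 7.41% of all tested genes fell and 14.8% rose. The median log2 fold change of the list was 0.02, beside 0.01 for all tested genes. *Igf2bp1*, a let-7 target and mRNA-binding protein, fell from 149 ± 12.3 to 98.3 ± 5.91 CPM (log2 fold change -0.66, SE 0.08, edgeR FDR = 3.1e-04). *Tut4*, the uridyltransferase that LIN28 recruits to let-7 precursors, fell from 237 ± 27.6 to 157 ± 4.85 CPM (-0.66, FDR = 3.8e-04). *Insr* (1.04, FDR = 5.4e-04) and *Ago2* (0.72, FDR = 4.0e-04) rose. Let-7 itself is not measured by poly(A) RNA sequencing. In Thy1+ cells 0 of the 29 were called (4 at an unadjusted p under 0.05), and with the block 1 fell, *Igf2bp1* (-0.69, FDR = 1.9e-06), and 1 rose, *Myc* (0.52, FDR = 6.9e-05), beside 4.92% and 3.20% of all genes.

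Of 36 tested genes of the wider pluripotency network, 2 fell and 6 rose in mutant c-Kit+ cells, beside 7.41% and 14.8% of all genes, and the median log2 fold change was -0.01. Those with the lowest p were *Tfcp2l1* (-0.86, SE 0.11, edgeR FDR = 4.4e-04), a transcription factor of naive stem cells, and among genes that rose *Tet1* (0.84, SE 0.11, FDR = 4.8e-04) and the receptor *Lifr* (0.70, SE 0.10, FDR = 7.5e-04). *Sall4* was at -0.45 (SE 0.08, FDR = 0.0014), short of the minimum fold change. In Thy1+ cells 0 were called (6 at an unadjusted p under 0.05), and with the block 3 fell and 2 rose, beside 4.92% and 3.20% of all genes. *Tcl1*, a cofactor of the kinase AKT, had the lowest p, with 19.6 ± 6.68 CPM in controls and 8.94 ± 1.92 CPM in mutants (-1.12, FDR = 0.247; with the block -1.09, FDR = 2.1e-05). Its level in control c-Kit+ libraries was 0.926 ± 0.176 CPM.

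The members were set beside the genes of their cell states. All 23 genes of the undifferentiated spermatogonia list had a negative log2 fold change in mutant Thy1+ cells (median -0.69, beside 0.02 for all tested genes), although 0 were called without the block and 13 with it, where 4.92% of all genes were called lower. In c-Kit+ cells 3 of 22 tested genes fell and 2 rose, beside 7.41% and 14.8% of all genes, with a median of -0.08. In the list of differentiation and meiotic entry, 9 of 15 genes fell in c-Kit+ cells and 0 rose, against the same 7.41% and 14.8%, with a median of -1.08, led by *Tex15* (-1.47, FDR = 1.3e-04) and *Prdm9* (-2.66, FDR = 1.4e-04) in the edgeR test. In Thy1+ cells 0 of these 15 were called without the block and 9 fell with it (background 4.92%).

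The list of immediate early genes, to which *Klf4* is often counted, rose in mutant c-Kit+ cells in 12 of 19 genes, beside 14.8% of all genes, with a median of 0.92. *Egr1* went from 375 ± 150 to 812 ± 169 CPM (1.06, SE 0.23, edgeR FDR = 0.0055) and *Ier3* from 13.1 ± 3.22 to 25.2 ± 4.31 CPM (0.89, SE 0.18, FDR = 0.0040). In Thy1+ cells 0 of 19 were called (9 at an unadjusted p under 0.05) and 12 rose with the block (background 3.20%). Of the 16 other tested KLF genes, 4 rose in c-Kit+ cells, led by *Klf12* (1.06, SE 0.14, FDR = 4.2e-04), and 0 fell, beside 14.8% and 7.41% of all genes. In Thy1+ cells 0 of the 16 were called, with 0 at an unadjusted p under 0.05, and 1 rose with the block (background 3.20%). In control Thy1+ against control c-Kit+ cells 16 of 19 immediate early genes were called higher, beside 20.7% of all genes. What part immediate early induction or cell makeup had in the level of *Klf4* was not tested.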

How the data were processed

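RNA sequencing gave 12 libraries, 3 for each genotype and population. For these the authors used Trimmomatic 0.39 to trim read pairs and HISAT2 2.1.0 for alignment to mm10, and deposited raw counts per gene from featureCounts (2.0.3 in the header) on RefSeq exons. The library kit was directional, but the command sets no strand option and counts both reads of a fragment, and 65.6% to 69.5% of the values from 1 to 19 are even. The other 30 samples of the series (ChIP-seq) were not analysed here.

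Genes were tested with edgeR 4.0.16 in R 4.3.3 (filterByExpr, TMM, quasi-likelihood F test, Benjamini-Hochberg adjustment), each comparison on its own 6 libraries and the interaction on 12, without a replicate term, as in the study. The alternatives were the exact test, DESeq2 1.42.0, other scalings and filters, a fit of all 12 libraries, no fold minimum, a replicate block, and each library left out. The germ scaling with a block and the scaling to *Ddx4* and *Dazl* were chosen after seeing the data.

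Libraries of the same number may be paired, which no source states. After subtraction of group means, same-numbered libraries correlated at 0.269 to 0.491 in Thy1+ cells and 0.133 to 0.297 between control populations, over the limit of 0.1 in each pair. They correlated at 0.0974 to 0.124 in c-Kit+ cells, 0.0210 to 0.201 between mutant populations and 0.0044 to 0.446 (10 of 18 pairs over 0.1) in the interaction, which were not treated as paired.

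The members and lists were chosen with earlier results of these data known. Named genes are all 8 members and, per list and genotype comparison, those of lowest p in each direction. For *Lin28a* and *Pou5f1*, the 3 genes of highest correlation over 12 libraries are also named. Of 223 list entries, 2 matched no gene. *Sycp3* was chosen after its values were seen. Some genes are in more than 1 list (*Sall4*, *Ccnd2*, *Klf2*, *Klf6*, *Sycp3*).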

Additional observations from a re-analysis of the deposited data

How the results depend on the processing

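Of the 692 values of single members under an alternative, 599 kept their direction and their side of the threshold, 28 lost and 45 gained a call, and 20 changed sign, each of these without a call. In Thy1+ cells the count of called members was 0 by the quasi-likelihood test. It was 4 by the exact test, 4 by DESeq2, 3 in the fit of all 12 libraries and 5 with the replicate block, all lower. These settings called 274 (1.57%), 326 (1.87%), 236 and 856 (4.92%) of all genes lower. With the block under germ marker scaling it was 7, 5 lower and 2 higher, beside 392 (2.25%) and 4405 (25.3%) of all genes. Under *Ddx4* and *Dazl* scaling with the block it was also 7, 5 lower and 2 higher, beside 407 and 4060. Leaving out 1 library gave 0 throughout. In c-Kit+ cells the count was 5, all lower, beside 7.41% of all genes. It was 2 in the fit of all 12 libraries (*Lin28a* and *Zfp42*), which uses 1 estimate of spread for all groups. That fit called 903 of all genes lower and 2374 higher. Leaving out 1 library gave 3 to 6. It was 3 without mutant replicate 3, 4 without control replicate 2 and 6 without control replicate 1. The replicate block gave 6 in c-Kit+ cells by adding *Klf4* as higher (0.58, edgeR FDR = 2.2e-04). Same-numbered c-Kit+ libraries correlated at 0.0974 to 0.124, and whether they are paired is not known. The block called 1287 of all genes lower and 2705 higher there. Between control populations leaving out 1 library gave 3 to 4, and between mutant populations 1 to 2. For the fits with 1 library left out, in any comparison, the calls among all genes are not given here. A shift in these counts of members thus cannot be told from a shift over all genes. The replicate block changed no call of a member between control populations, between mutant populations or in the interaction.

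The values that changed sign were these. Between control populations *Zfp42* was at -0.0064 with library size only and -0.10 to 0.20 with 1 library left out, and *Utf1* at 0.21 with germ marker scaling. Between mutant populations *Lin28a* was at 0.54 and *Utf1* at 0.24 with germ marker scaling, and *Lin28a* at -0.22 to 0.15 with 1 library left out. In the interaction *Utf1* was at 0.0032 with the filter of 1 CPM in 3 libraries and 0.0204 with the replicate block. With 1 library left out the interaction ran from -0.21 to 0.17 for *Utf1*, -0.34 to 0.14 for *Lin28b*, -0.42 to 0.0044 for *Zfp42*, -0.15 (without mutant c-Kit+ replicate 3) to 1.59 for *Dppa2* and -0.13 to 0.61 for *Klf4*. Germ marker scaling raised the share of called genes that were higher in mutant c-Kit+ cells from 66.7% to 91.4%. The precision is limited by 3 libraries per group and for *Pou5f1* by the spread of its control libraries. For *Dppa2* it is limited by 2 to 36 counts per library, in which both reads of a fragment are counted.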

Other observations

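The genes whose pattern over the 12 libraries was most like that of *Lin28a*, by Pearson correlation of log2 CPM among 13677 genes with a mean of at least 1 log2 CPM, were *Ube4b* (r = 0.986), *Pnma5* (r = 0.981) and *Pkd2l1* (r = 0.980). The libraries share their depth, sorting and genotype steps, so these values are descriptions. For *Pnma5* the level was 43.5 ± 1.56 CPM (SD, n = 3) in the Thy1+ controls against 18.2 ± 5.75 CPM in the Thy1+ mutants, and 44.7 ± 0.371 against 18.9 ± 0.527 CPM in c-Kit+ libraries. *Pkd2l1* had 17.8 ± 3.36 against 3.35 ± 0.906 CPM and 14.3 ± 2.39 against 3.5 ± 0.707 CPM. *Ube4b* was more abundant and differed less, with 271 ± 13.5 against 199 ± 14.6 CPM and 258 ± 6.14 against 198 ± 8.64 CPM. Like *Lin28a*, all 3 genes were at nearly the same level in Thy1+ and c-Kit+ libraries of a genotype.

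The genes most like *Pou5f1* were *Plb1*, *Stk35* and *Supt6* (r = 0.958, 0.958 and 0.957). *Plb1* had 9.21 ± 2.74 CPM in control Thy1+ libraries and 3.28 ± 0.527 CPM in mutant ones, and 5.49 ± 1.10 against 2.81 ± 0.208 CPM in c-Kit+ libraries, the order of the groups that *Pou5f1* also shows.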
